A study of Mus musculus with 15 samples.

Results

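Lysosomal gene expression was examined in tumor-associated macrophages (TAMs) from mouse liver tumors, for 51 genes of the lysosome found by symbol among the 55335 genes of the deposited table. They comprise 9 cysteine cathepsins, 5 other proteases, 7 glycosidases, 3 sulfatases, 4 lipid hydrolases and cofactors, 7 membrane proteins, 5 V0 and accessory subunits and 8 V1 subunits of the vacuolar ATPase (V-ATPase), and the 3 transcription factors Tfeb, Tfe3 and Mitf. All 51 averaged 1 FPKM or more over the 15 samples, a filter that 11419 genes passed; FPKM counts fragments per kilobase of transcript, scaled to the mapped fragments of a sample.

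TAMs were sorted by FACS from orthotopic hepatocellular carcinoma (HCC) grown in the liver of C57BL/6 mice from Hepa1-6 cells, a mouse hepatoma line that had been given luciferase by lentivirus. The control group came from tumors of control cells, the miR-144 group from tumors of cells overexpressing miR-144, and the miR-451a group from tumors of cells overexpressing miR-451a, with 5 samples each. In the study's model the tumors were examined 3 weeks after injection, and the age of the mice is not given in the sources used here. The miRNAs were overexpressed in the tumor cells and not in the macrophages, so the comparisons ask how macrophages differ between tumors. No label says that the samples of a group come from separate mice, so the p-values measure only the spread between these samples. The study's text gives a smaller n for an analysis of this RNA-seq than the number of samples in the table, and whether samples share a mouse or pool is not given in the sources used here.

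The lysosome is an acidic organelle in which proteases, glycosidases, sulfatases and lipid hydrolases break down what the cell takes up or recycles. The V-ATPase acidifies it: its membrane sector V0 carries protons across the membrane, and its cytosolic sector V1 hydrolyses ATP. Macrophages are rich in lysosomes because they digest engulfed cells, and the MiT/TFE factors (Tfeb, Tfe3, Mitf) bind E-box motifs near the start of many lysosomal genes.

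The mature forms of the overexpressed miRNAs are shown with the seed, bases 2 to 8, in capitals, because the groups are named for them. Both hairpins lie on mouse chromosome 11, and the sequences and positions are those of RefSeq on GRCm38.p6 (mmu-miR-144-3p at chr11:78073047-78073066 and mmu-miR-451a at chr11:78073186-78073207, plus strand). The seeds differ from each other.
mmu-miR-144-5p: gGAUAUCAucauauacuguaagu
mmu-miR-144-3p: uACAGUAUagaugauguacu
mmu-miR-451a: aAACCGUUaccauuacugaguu

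The samples had an implied depth of 15.5 to 30.3 M fragments, inferred from the steps between low FPKM values. From 42.9% to 55.8% of the low values of a sample fell on these steps, where 10% would by chance. All 6 macrophage markers were present in every sample, with a summed level of 2107 to 2234 FPKM in control TAMs, 4415 to 4760 in miR-144 TAMs and 4404 to 4879 in miR-451a TAMs, and all 6 had higher means in the miRNA groups. Their sum counts Itgam, which has 2 identifiers in the table, by 1 of them. The 3 fibroblast markers summed to 69.0 to 87.5 FPKM in control, 89.3 to 140.7 in miR-144 and 122 to 156 in miR-451a TAMs. The 4 Kupffer cell markers summed to 3.30 to 3.75, 17.0 to 49.9 and 15.7 to 47.0 FPKM, almost wholly from Cd5l, and Clec4f was listed at 0 in all samples. Cd5l stood apart in replicates 3 and 4, at 44.9 and 48.9 FPKM in miR-144 and 38.4 and 46.1 in miR-451a TAMs, against 15.3 to 19.7 in the other miRNA samples. These were also the 2 highest samples of both miRNA groups for 8 of the 51 genes (Ctsb, Ctsc, Ctsd, Asah1, Psap, Scarb2, Lgmn and Atp6v0d2), a count not made over all tested genes. Without these 4 libraries, all 8 kept their calls, at log2 fold changes such as -3.61 and -3.87 for Atp6v0d2, 0.65 and 0.64 for Scarb2 and -0.997 and -1.03 for Psap. Of the 51 genes, 33 were then lower and 10 higher in miR-144 and 34 lower and 12 higher in miR-451a TAMs, a setting chosen after seeing the data. Under it 18.5% of all tested genes were lower and 44.2% higher in miR-144 TAMs, and 19.4% and 45.6% in miR-451a TAMs. The neutrophil sum, 64.9 to 79.2 FPKM in control and 44.1 to 53.2 in the miRNA groups, came almost wholly from Csf3r, with Retnlg at 0. The monocyte sum was 2.39 to 3.75 FPKM in control, 7.05 to 12.0 in miR-144 and 6.59 to 11.1 in miR-451a TAMs. The osteoclast sum, 3.82 to 4.93 FPKM in control and at most 0.0838 in the miRNA groups, was Ocstamp almost alone, with Oscar under 0.1 FPKM and Calcr at 0 throughout. Endothelial markers summed to 3.70 to 5.93 FPKM and peritoneal macrophage markers to 1.57 to 3.44 over all samples. Dendritic, T, B, NK, mast, hepatocyte and red cell lists each summed to under 1 FPKM in every sample, and Alb, Apoa1, Ttr and Apoc3, which mark hepatocytes, were listed at 0. The part that these other cells had in the results was not tested. In bulk RNA, fewer cells of one kind and less RNA per cell cannot be told apart.

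Lysosomal transcripts made up a large part of the RNA of control TAMs and a smaller part in both miRNA groups. Together the 51 genes held 11.4% ± 0.238 (SD, n = 5) of the summed FPKM in control TAMs, with samples from 11.2% to 11.8%. They held 7.43% ± 0.255 in miR-144 TAMs (7.09% to 7.77%) and 7.26% ± 0.0858 in miR-451a TAMs (7.14% to 7.36%). No miRNA sample reached the lowest control sample.

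**Figure D1:**
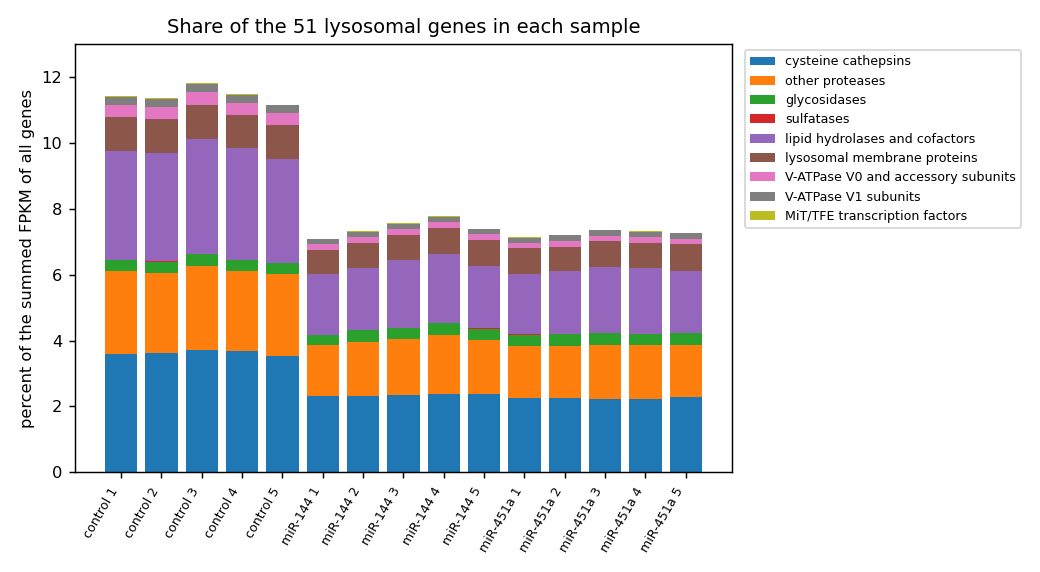
Share of the summed FPKM of all genes (vertical axis, percent, from 0) held by the 51 lysosomal genes in each of the 15 samples, stacked by class. The 5 control bars reach 11.2% to 11.8%, and the 10 bars of the miRNA groups reach 7.09% to 7.77%; cathepsins, other proteases and lipid hydrolases with cofactors make up most of each bar.

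The cysteine cathepsins went from 3.62% ± 0.0701 of the total in control to 2.35% ± 0.0297 in miR-144 and 2.26% ± 0.0280 in miR-451a TAMs. The lipid hydrolases and cofactors, of which Psap is the largest, went from 3.33% ± 0.123 to 1.95% ± 0.114 and 1.93% ± 0.0723. The glycosidases held 0.336% ± 0.00766, 0.341% ± 0.0136 and 0.350% ± 0.0104, and their groups overlapped. Each value is a mean with its SD over 5 samples.

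Relative to control, the lysosomal genes moved mostly down while more of all tested genes were higher than lower, an excess that centring on sample medians removed. In miR-144 TAMs 35 of the 51 genes were lower and 11 higher at an adjusted p under 0.05 (limma on log2(FPKM + 1), Benjamini-Hochberg over 11419 genes), where over all tested genes 20.1% were lower and 47.1% higher (67.2% called). In miR-451a TAMs 35 were lower and 12 higher, against 20.3% and 48.1% of all tested genes (68.3% called). The 51 genes had a median log2 fold change of -0.34 in miR-144 and -0.39 in miR-451a TAMs, where all tested genes had medians of 0.13 and 0.14. With the samples centred on their medians, which takes that shift away, 37 were lower and 6 higher in miR-144 TAMs, against 30.7% lower and 30.8% higher of all tested genes. In miR-451a TAMs 37 were then lower and 7 higher, against 31.8% and 31.3% of all tested genes.

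The groups did not overlap, with all 5 miRNA samples below all 5 control samples, for 33 of the 51 genes in miR-144 TAMs, where this held for 16% of all tested genes, and for 33 in miR-451a TAMs (16.4% of all tested genes). They did not overlap in the other direction for 8 and 9 genes (37.9% and 38.8% of all tested genes). Both comparisons use the same 5 control samples. Mcoln1, Grn and Tfe3 passed in neither, Hexa and Ctsh missed the threshold in miR-144 TAMs, and Neu1 missed it in miR-451a TAMs. The difference between the miRNA groups was not called for any of these 6 genes.

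**Figure D2:**
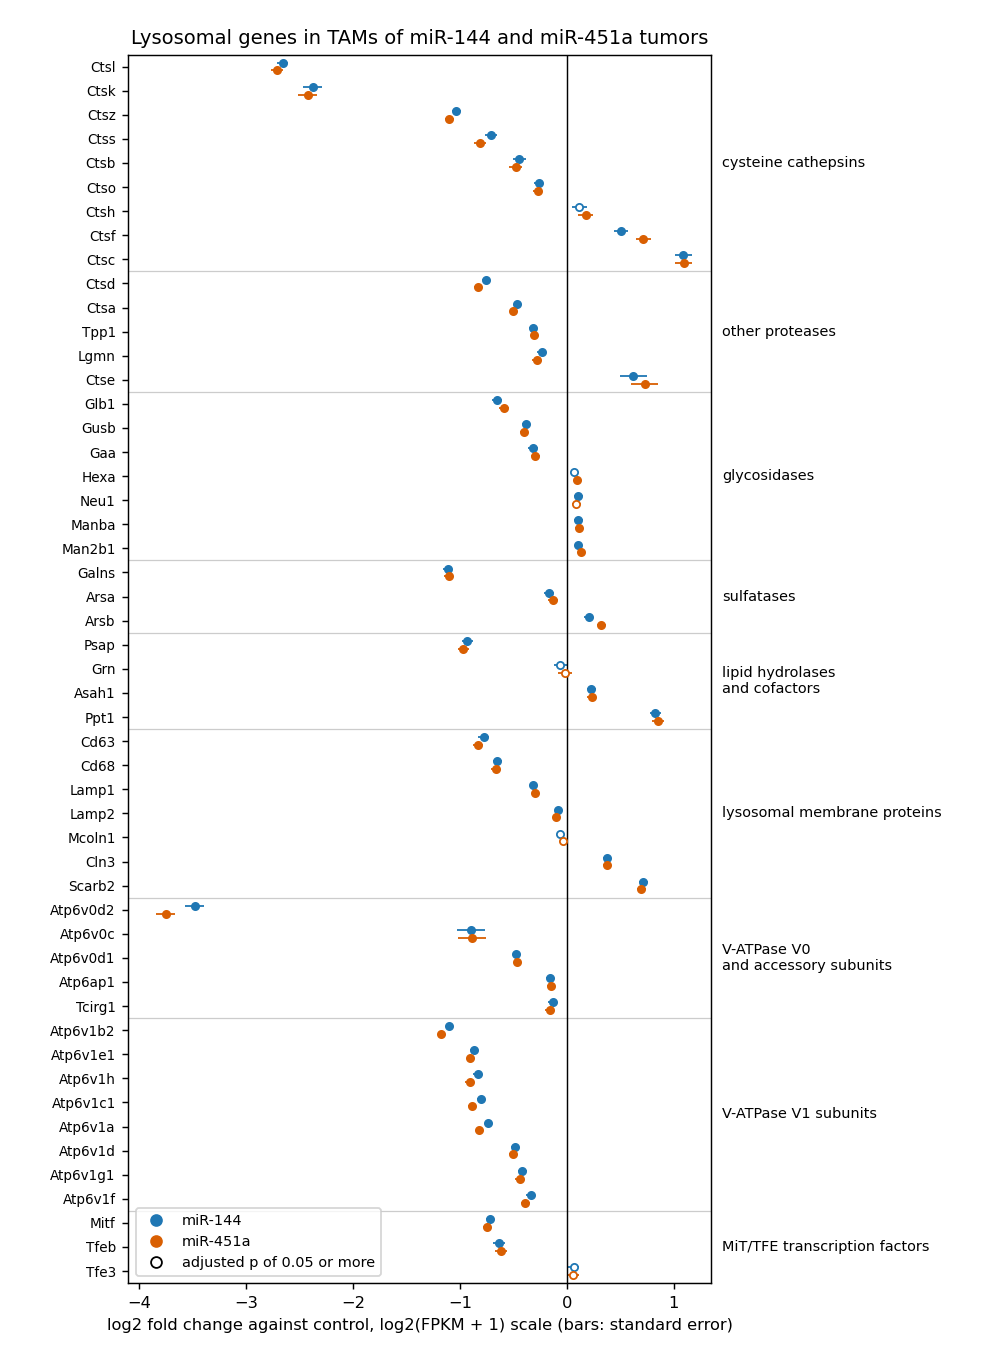
Log2 fold change against control (horizontal axis, log2(FPKM + 1) scale, bars are standard errors) of the 51 lysosomal genes, grouped by class, for miR-144 (blue) and miR-451a (orange) TAMs; open points had an adjusted p of 0.05 or more. All 13 V-ATPase genes lie left of 0 in both comparisons, from -3.75 (Atp6v0d2) to -0.13 (Tcirg1), and Ctsc lies furthest right at 1.09.

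Among the cysteine cathepsins, papain-like proteases of the lysosome, 6 of 9 were lower in each comparison (20.1% and 20.3% of all tested genes), and Ctsl and Ctsk fell most. Ctsl, an endopeptidase that also processes other lysosomal enzymes (GENCODE M21, GRCm38, chr13:64359337-64370890, minus strand), had 439.9, 421, 449, 474 and 399.6 FPKM in control samples 1 to 5. In miR-144 TAMs it had 68.4, 67.1, 70.6, 73.8 and 62.0 FPKM, and in miR-451a TAMs 69.1, 64.5, 61.3, 68.4 and 65.5. Every miRNA sample lay far below the lowest control sample, and the means were 6.39-fold and 6.64-fold lower (log2 fold change -2.66 and -2.71, both with an SE of 0.053; limma adjusted p = 3.84e-15 and 2.79e-15). Of its exon bases 26.9% overlap the antisense gene Gm47123, and the strandedness of the library is not given in the sources used here, so reads of the pair cannot be told apart, and 6.90% of its 50-mers are shared with other genes such as Gm49230.

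Ctsk encodes the collagen-degrading cathepsin best known from osteoclasts (chr3:95499256-95509362, plus strand). It had 56.7, 57.8, 53.4, 57.5 and 57.5 FPKM in control samples. The miR-144 samples had 11.5, 11.4, 8.99, 8.63 and 10.2 FPKM, and the miR-451a samples 11.7, 8.32, 8.67, 10.6 and 9.67. The groups did not overlap, and the means were 5.58-fold and 5.78-fold lower (log2 fold change -2.38 and -2.43; limma adjusted p = 3.28e-12 and 2.47e-12).

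Ctsz, a carboxypeptidase, had 1795, 1709, 1835, 1724 and 1746 FPKM in control samples. It had 874, 875, 811, 840.2 and 902 FPKM in miR-144 samples and 804, 780.4, 811, 815 and 898 in miR-451a samples. Its mean was 2.05-fold lower in miR-144 and 2.14-fold lower in miR-451a TAMs, with no overlap (limma adjusted p = 7.97e-12 and 3.65e-12).

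The most abundant cathepsins fell by less on the fold scale but by more FPKM. Ctss, an endopeptidase that trims the invariant chain of MHC class II, went from 5141 ± 181 to 3146 ± 198 and 2928 ± 204 FPKM (log2 fold change -0.71 and -0.81; limma adjusted p = 1.64e-08 and 3.15e-09). Ctsb went from 3499 ± 70.3 to 2578 ± 215 and 2512 ± 187 FPKM (-0.44 and -0.48), a call that was lost under quantile normalization, where its log2 fold changes were -0.05 and -0.02. Ctso, at 14.1 FPKM in control, completed the 6 with log2 fold changes of -0.26 and -0.27.

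Ctsc and Ctsf went against their class, and Ctsh was called higher in miR-451a TAMs alone. Ctsc, the dipeptidyl peptidase that activates granule serine proteases (chr7:88278085-88310888, plus strand), had 28.8, 26.7, 27.9, 24.9 and 25.5 FPKM in control samples. It had 52.5, 57.6, 65.2, 61.0 and 54.1 FPKM in miR-144 samples and 60.8, 54.4, 63.3, 64.1 and 48.8 in miR-451a samples. The groups did not overlap, and its means were 2.17-fold and 2.18-fold higher (log2 fold change 1.09 in both; limma adjusted p = 6.70e-09 and 6.28e-09).

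Ctsf, which can also process the invariant chain, had 2.65, 2.71, 3.01, 2.60 and 2.87 FPKM in control samples. It had 3.66, 4.49, 4.26, 5.07 and 4.31 FPKM in miR-144 samples and 5.56, 5.09, 5.33, 5.55 and 4.45 in miR-451a samples. All miRNA samples were above all controls (1.58-fold and 1.88-fold, log2 fold change 0.50 and 0.72; limma adjusted p = 8.11e-06 and 1.67e-07). Ctsh, an aminopeptidase, had 51.8, 42.9, 54.3, 48.6 and 45.4 FPKM in control samples, 48.7, 50.6, 53.4, 53.1 and 57.1 in miR-144 samples and 53.6, 48.8, 59.3, 60.2 and 53.2 in miR-451a samples. Its groups overlapped, and it passed in miR-451a TAMs (log2 fold change 0.18, limma adjusted p = 0.0346, against 0.11 with an adjusted p of 0.161 in miR-144 TAMs). That call was lost when any 1 of 5 samples was left out (control 2, 4 or 5, or miR-451a 3 or 4), with adjusted p from 0.0531 to 0.0969. It was also lost under median centring (0.03, limma adjusted p = 0.723), with no filter (0.0691) and with 2 groups only (0.0548), and on rescaling to TPM Ctsh passed in miR-144 TAMs too (0.19, adjusted p = 0.0281).

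**Figure D3:**
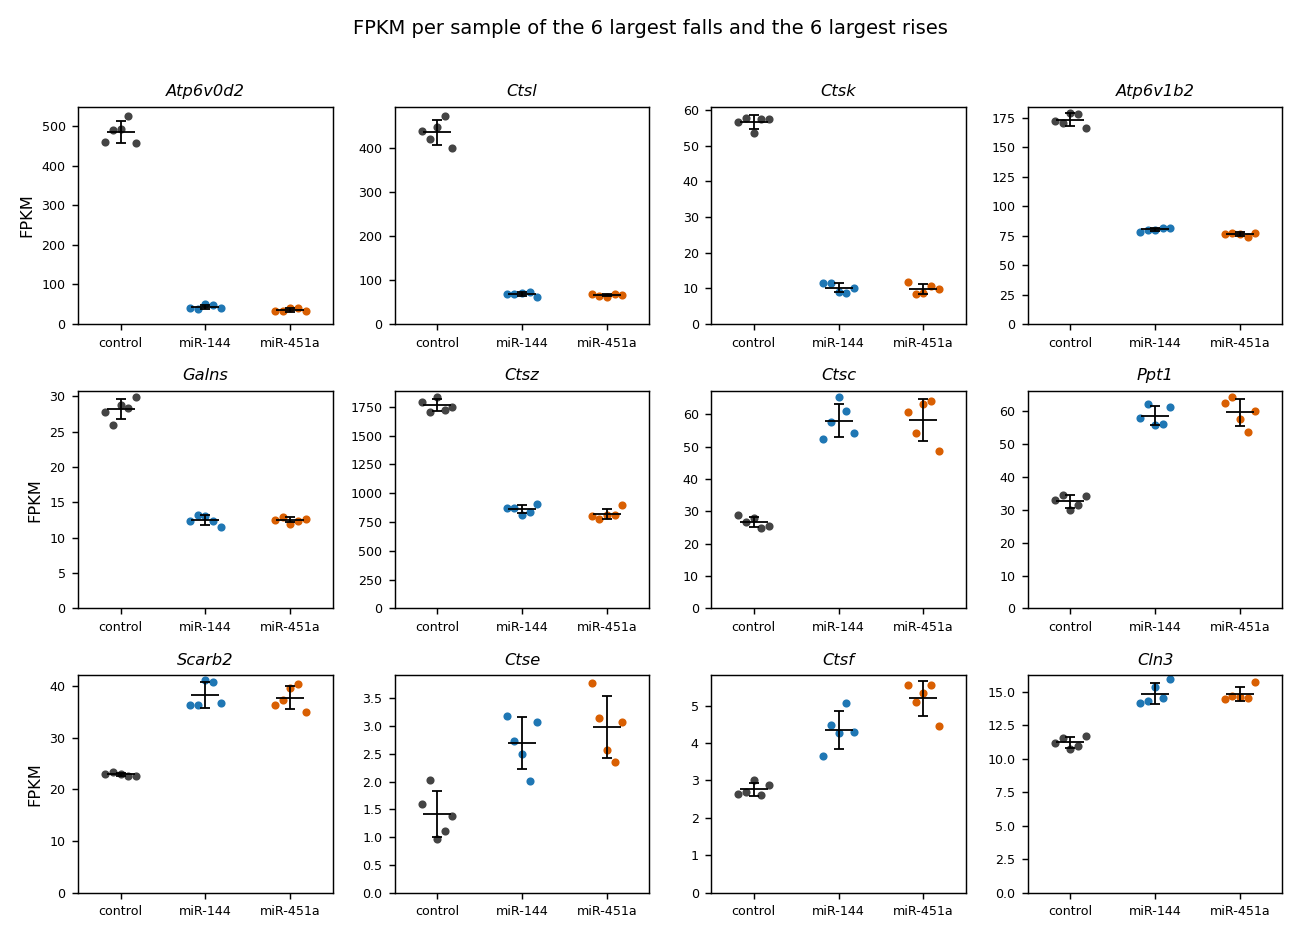
FPKM per sample (vertical axes from 0) of the 6 lysosomal genes with the largest falls (Atp6v0d2, Ctsl, Ctsk, Atp6v1b2, Galns, Ctsz) and the 6 with the largest rises (Ctsc, Ppt1, Scarb2, Ctse, Ctsf, Cln3) in the 3 groups; points are samples, bars the mean and SD of 5. The miRNA points lie apart from the control points in every panel except that of Ctse, where 1 miR-144 sample (2.004 FPKM) lies under the highest control sample (2.025).

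Of the 5 other proteases, 4 were lower in each comparison (20.1% and 20.3% of all tested genes) and Ctse was higher (47.1% and 48.1%). Ctsd, the aspartic protease that is the most abundant protease of these genes, had 6188, 5986, 6358, 6199 and 6182 FPKM in control samples. It had 3438, 3547, 3717, 3947 and 3627 FPKM in miR-144 samples and 3382, 3359.7, 3622, 3542 and 3440.5 in miR-451a samples. With no overlap, its means were 1.69-fold and 1.78-fold lower (limma adjusted p = 2.02e-10 and 6.30e-11). Ctsd is uncertain as a gene value, because 36.6% of the 50-mers in the longest of its transcripts are found in Gm49369 as well, a gene that overlaps it on the same strand.

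Ctsa (a carboxypeptidase that protects neuraminidase and beta-galactosidase), Tpp1 (a tripeptidyl peptidase) and Lgmn (the asparaginyl endopeptidase that cleaves cathepsin precursors) fell less. Their log2 fold changes were -0.46, -0.32 and -0.24 in miR-144 TAMs and -0.50, -0.31 and -0.28 in miR-451a TAMs, and none of the 3 overlapped with control. Ctse, an endosomal aspartic protease, was low, with 1.59, 2.025, 0.968, 1.12 and 1.38 FPKM in control samples. It had 3.19, 2.73, 2.49, 2.004 and 3.07 FPKM in miR-144 samples and 3.77, 3.14, 2.57, 2.35 and 3.08 in miR-451a samples. It rose in both (1.90-fold and 2.10-fold, log2 fold change 0.62 and 0.73, SE 0.125; limma adjusted p = 0.000472 and 0.000109), with the miR-451a samples above all controls.

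Glycosidases, which remove sugars from glycoproteins, glycolipids and glycogen, had 3 higher and 3 lower of 7 in each comparison, where 47.1% and 48.1% of all tested genes were higher and 20.1% and 20.3% lower. Glb1 (beta-galactosidase), Gusb (beta-glucuronidase) and Gaa (acid alpha-glucosidase) were lower, with log2 fold changes of -0.65, -0.38 and -0.32 in miR-144 TAMs and -0.58, -0.40 and -0.30 in miR-451a TAMs, and none overlapped with control. Man2b1 and Manba, which cleave alpha- and beta-linked mannose, were called higher in both, at 0.10 and 0.11 in miR-144 and 0.13 and 0.11 in miR-451a TAMs, but turned negative under median centring, and Manba also under quantile normalization. Hexa, a subunit of beta-hexosaminidase, was called higher in miR-451a TAMs (0.10) and Neu1, a neuraminidase, in miR-144 TAMs (0.11), and both likewise turned negative under median centring. The Manba call in miR-144 TAMs was lost without control replicate 3 or 4 or miR-144 replicate 2, 3 or 4 (limma adjusted p 0.0519 to 0.0886) and with no filter (0.0526), and in miR-451a TAMs when replicate 1 or 2 of that group, or control replicate 3 or 4, was left out (0.0523 to 0.0713). The Neu1 call was lost without control replicate 2, 3 or 4 or miR-144 replicate 2 or 5 (0.0521 to 0.0667). Without single samples Hexa passed in miR-144 TAMs (miR-144 replicate 1, adjusted p = 0.0106) and Neu1 in miR-451a TAMs (miR-451a replicate 3 or 4, adjusted p = 0.0319 and 0.0158). On rescaling to TPM both passed as well (limma adjusted p = 0.0025 and 0.00343), Neu1 also with a replicate block in miR-451a TAMs (0.0309), and its miR-144 call was lost under quantile normalization (0.0807).

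Galns, the sulfatase of keratan sulfate, had 27.8, 26.0, 28.7, 28.3 and 29.8 FPKM in control samples. It had 12.3, 13.2, 13.05, 12.3 and 11.4 FPKM in miR-144 samples and 12.5, 12.98, 12.0, 12.4 and 12.7 in miR-451a samples. No miRNA sample came near the controls, and its means were 2.26-fold and 2.25-fold lower (limma adjusted p = 3.91e-12 and 3.87e-12). Arsa, which removes sulfate from sulfatide, fell by 0.17 and 0.13 on the log2 scale, calls lost on rescaling to TPM, and in miR-451a TAMs also without miRNA replicates 3 and 4 (adjusted p = 0.107).

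Arsb, the sulfatase of dermatan sulfate, went the other way from Galns. Its control samples had 2.97, 2.93, 2.67, 2.78 and 3.03 FPKM, its miR-144 samples 3.59, 3.66, 3.24, 3.18 and 3.61, and its miR-451a samples 3.89, 3.76, 4.02, 3.61 and 3.91. The miRNA samples lay above the controls (1.20-fold and 1.33-fold, log2 fold change 0.20 and 0.32; limma adjusted p = 0.000597 and 6.98e-06), the first of these calls being lost under median centring and quantile normalization (adjusted p = 0.156 and 0.358). Of its exon bases 32.3% overlap the antisense gene Gm26527.

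Psap, the precursor of the saposins that present sphingolipids to their hydrolases, ranked 1st of all genes by FPKM in control TAMs (chr10:60277627-60302597, plus strand). Its control samples had 9186, 9333, 9896, 9822 and 8987 FPKM. Its miR-144 samples had 4777, 4659, 5232, 5332 and 4750.5 FPKM, and its miR-451a samples 4536, 4638, 5118, 5141 and 4705. No groups overlapped between control and miRNA, and its means were 1.91-fold and 1.96-fold lower (limma adjusted p = 4.55e-10 and 2.77e-10). Over the 10 miRNA samples it ranked 4th. Ctsd, Ctss and Ctsb were also among the 10 highest genes of control TAMs.

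Ppt1, which removes palmitate from proteins, rose instead. It had 33.1, 34.4, 29.8, 31.6 and 34.3 FPKM in control samples, 57.9, 62.2, 55.9, 56.2 and 61.2 in miR-144 samples and 62.5, 64.5, 57.8, 53.8 and 60.1 in miR-451a samples. The groups stood apart, at 1.80-fold and 1.83-fold of control (limma adjusted p = 2.08e-09 and 1.41e-09). Asah1, acid ceramidase, was higher by 0.23 on the log2 scale in both, which median centring took below the threshold, whereas Grn, progranulin, had 485 ± 29.8, 465 ± 37.3 and 479 ± 32.9 FPKM and passed in neither, although it was called lower under median centring (-0.20 and -0.16, limma adjusted p = 0.0148 and 0.0362).

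Of the 7 membrane proteins, 4 were lower and 2 higher in each comparison, against 20.1% and 20.3% lower and 47.1% and 48.1% higher of all tested genes. Cd68, a macrophage sialomucin used to mark macrophages, went from 1444 ± 46.2 to 919 ± 25.0 and 910.4 ± 57.4 FPKM. Cd63, a tetraspanin of late endosomes, went from 285 ± 15.5 to 166 ± 10.9 and 160.0 ± 7.03 FPKM, and shares 9.03% of its 50-mers with other genes such as Cd63-ps. Their log2 fold changes were -0.65 and -0.78 in miR-144 and -0.67 and -0.83 in miR-451a TAMs, with no overlap.

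Lamp1 and Lamp2, the major glycoproteins of the lysosomal membrane, changed less, by -0.32 and -0.08 in miR-144 and -0.30 and -0.10 in miR-451a TAMs. The Lamp1 call was lost under quantile normalization and the Lamp2 call on rescaling to TPM. In miR-144 TAMs the Lamp2 call was also lost without control replicate 2, control replicate 4 or miR-144 replicate 4 (adjusted p 0.0606, 0.0516 and 0.0653). Mcoln1, a calcium channel of the lysosome, had 13.003 ± 0.354, 12.4 ± 0.193 and 12.6 ± 0.467 FPKM and passed in neither. It was called lower in each comparison under median centring (log2 fold change -0.20 and -0.18, limma adjusted p = 3.24e-05 and 5.84e-05) and under quantile normalization (-0.15 and -0.13, adjusted p = 0.000279 and 0.000922), and in miR-144 TAMs without control replicate 3 or miR-451a replicate 2 (adjusted p = 0.0375 and 0.0484).

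Scarb2, the receptor that carries glucocerebrosidase to lysosomes, had 23.0, 23.4, 23.0, 22.5 and 22.7 FPKM in control samples. It had 36.4, 36.3, 41.1, 40.8 and 36.8 FPKM in miR-144 samples and 36.4, 37.4, 39.6, 40.5 and 35.0 in miR-451a samples. All miRNA samples were higher than all controls (log2 fold change 0.71 and 0.70; limma adjusted p = 2.01e-09 and 2.53e-09). Cln3, a membrane protein lost in juvenile Batten disease, had 11.1, 11.6, 10.8, 10.9 and 11.7 FPKM in control, 14.1, 14.3, 15.4, 14.5 and 15.96 in miR-144 and 14.4, 14.7, 14.6, 14.5 and 15.7 in miR-451a samples. It too did not overlap (log2 fold change 0.38 and 0.37; limma adjusted p = 4.35e-07 and 4.76e-07).

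All 13 V-ATPase genes were lower in each comparison, where 20.1% and 20.3% of all tested genes were, and the largest fall of any of the 51 genes was that of Atp6v0d2. This gene encodes the d2 isoform of the V0 subunit d, known from osteoclasts and macrophages (chr4:19876841-19922605, minus strand). It had 460.0, 489.6, 493, 524 and 456 FPKM in control samples. The miR-144 samples had 40.4, 36.5, 49.7, 47.9 and 39.3 FPKM, and the miR-451a samples 31.5, 31.8, 39.5, 39.5 and 33.6. Far from overlapping, the means were 11.3-fold and 13.8-fold lower than control (log2 fold change -3.48 and -3.75, SE 0.088; limma adjusted p = 5.54e-14 and 2.22e-14), and the gene went from rank 66 of all genes by FPKM in control TAMs to rank 1019 in the miRNA groups.

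Atp6v0d1, the d1 isoform found in most tissues, fell far less. Its control samples had 122, 124, 120.3, 123 and 123 FPKM, its miR-144 samples 81.4, 89.0, 90.4, 88.2 and 88.2, and its miR-451a samples 86.2, 89.8, 88.9, 89.3 and 86.3. The groups did not overlap (log2 fold change -0.48 and -0.47; limma adjusted p = 9.86e-10 and 1.25e-09). On the FPKM scale, which is per length, d2 made up 79.8% ± 0.918 of the sum of both isoforms in control TAMs, 32.7% ± 2.78 in miR-144 TAMs and 28.5% ± 2.16 in miR-451a TAMs (SD, n = 5), so that d1 was the more abundant isoform in all 10 miRNA samples and in no control sample.

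**Figure D4:**
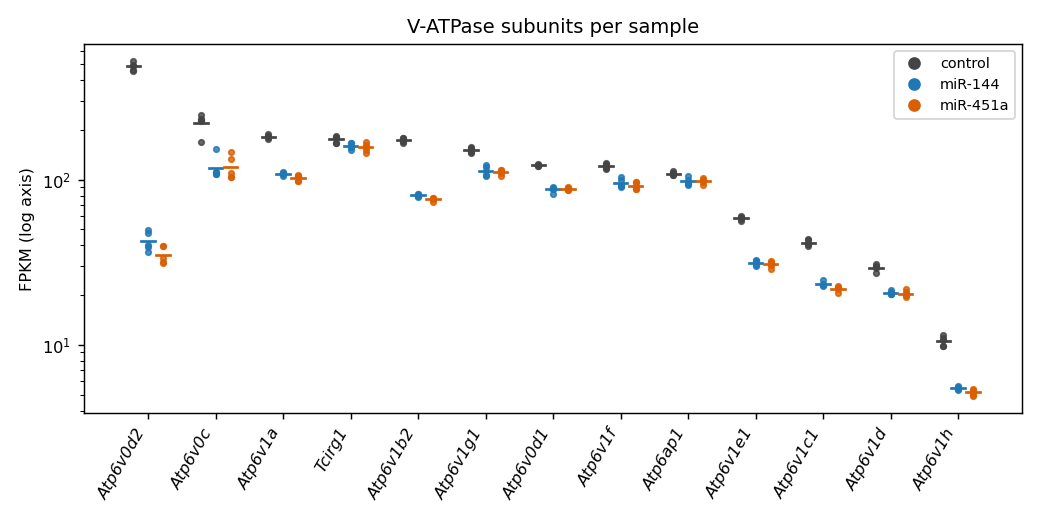
FPKM per sample (vertical log axis) of the 13 V-ATPase genes, ordered by their control mean; points are samples and short lines the mean of 5. Atp6v0d2 is the highest of the 13 in control TAMs (485 FPKM) and lies at 42.7 and 35.2 in miR-144 and miR-451a TAMs, while Tcirg1 and Atp6ap1 lie close to their control levels.

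The other V0 and accessory genes fell by less than Atp6v0d2. Atp6v0c, the proton-carrying ring subunit, went from 221 ± 29.6 to 118 ± 20.1 and 119 ± 19.9 FPKM (log2 fold change -0.90 and -0.89), and it shares 12.2% of its 50-mers with other genes such as Atp6v0c-ps2. Sample 4 of its groups was the lowest control (169.9 FPKM) and the highest of miR-144 (154.2) and miR-451a TAMs (147.6). Tcirg1, the a3 isoform, changed by -0.13 and -0.16 with overlapping groups, and turned to 0.03 and 0.02 under quantile normalization. Atp6ap1, an assembly subunit, fell by 0.16 and 0.15 on the log2 scale, and both it and Tcirg1 lost the call on rescaling to TPM. Without miRNA replicates 3 and 4 the Tcirg1 call in miR-144 TAMs was lost (adjusted p = 0.0681).

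All 8 V1 genes fell without overlap in each comparison, where 16% and 16.4% of all tested genes did. Atp6v1b2, the B subunit isoform found in most tissues, had 172, 170.5, 179, 179 and 167 FPKM in control samples. It had 78.2, 80.1, 80.0, 81.9 and 81.7 FPKM in miR-144 samples and 76.4, 77.4, 76.1, 73.5 and 77.6 in miR-451a samples. Its means were 2.16-fold and 2.28-fold lower (log2 fold change -1.10 and -1.18; limma adjusted p = 4.22e-14 and 1.90e-14).

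Its partner in the catalytic head, Atp6v1a, fell by 0.74 and 0.83 on the log2 scale. The stalk and regulatory subunits Atp6v1e1 (-0.87 and -0.90), Atp6v1h (-0.84 and -0.91) and Atp6v1c1 (-0.80 and -0.89) fell about as much. Atp6v1d (-0.49 and -0.50), Atp6v1g1 (-0.42 and -0.44) and Atp6v1f (-0.34 and -0.39) fell less, and the last 2 share 19.2% and 12.6% of their 50-mers with other genes.

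Of the MiT/TFE factors, Mitf and Tfeb were lower and Tfe3 was not called. Mitf had 19.0, 18.2, 19.2, 19.1 and 18.8 FPKM in control, 11.5, 10.46, 10.8, 11.5 and 10.99 in miR-144 and 10.4, 11.2, 10.8, 10.8 and 10.9 in miR-451a samples. Its groups did not overlap (log2 fold change -0.72 and -0.75; limma adjusted p = 2.05e-11 and 1.23e-11). Tfeb had 14.4, 13.8, 13.5, 11.8 and 14.0 FPKM in control, 8.39, 9.01, 8.44, 7.55 and 8.34 in miR-144 and 8.35, 7.73, 9.18, 8.005 and 8.90 in miR-451a samples.

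Tfeb likewise stood below control in all 10 miRNA samples (log2 fold change -0.63 and -0.62; limma adjusted p = 1.20e-07 and 1.44e-07). Tfe3 had 15.5, 14.5, 14.0, 13.5 and 16.3 FPKM in control, 16.4, 14.6, 16.8, 14.9 and 14.7 in miR-144 and 15.1, 15.7, 15.1, 16.1 and 14.96 in miR-451a samples. Its groups overlapped (log2 fold change 0.07 and 0.06; limma adjusted p = 0.274 and 0.331), and it was called higher on rescaling to TPM (0.14 in both). By FPKM, Mitf made up 40.1% ± 1.94 of the 3 factors in control TAMs and 31.7% ± 1.52 and 31.2% ± 0.648 in the miRNA groups.

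**Figure D5:**
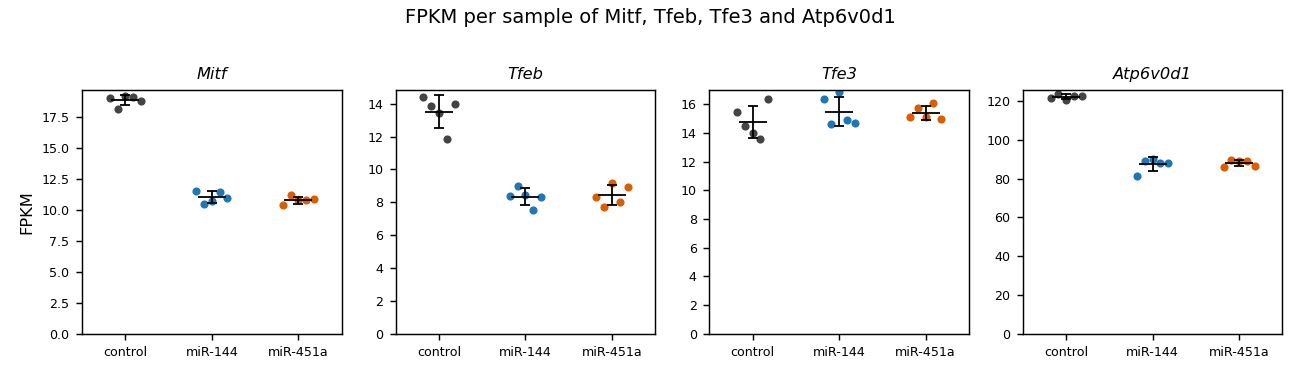
FPKM per sample (vertical axes from 0) of Mitf, Tfeb, Tfe3 and Atp6v0d1 in the 3 groups; points are samples, bars the mean and SD of 5. Mitf and Tfeb lie lower in all 10 miRNA samples than in any control sample, at means of 18.9 and 13.5 FPKM in control TAMs, whereas Tfe3 lies at 13.5 to 16.8 FPKM in every group.

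The promoters of the lysosomal genes were searched for the E-box CACGTG and its extended form TCACGTGA, because MiT/TFE factors bind such letters. Both are palindromes, so either strand gives the same match, and each TCACGTGA contains a CACGTG. In RefSeq promoters of GRCm38.p6 (250 bases before to 50 after a gene's start), 41 of the 51 genes were matched. Of these, 13 (31.7%) held CACGTG, against 8.09% of the 27025 genes in the table, and 6 (14.6%) held TCACGTGA, against 1.12%. A gene was counted if any of its promoters held the letters, and 7.15% and 0.974% of all 32851 promoters did. Of the 13 genes, 10 were lower and 2 higher (Cln3 and Ctsf) in each comparison, where 35 of all 51 were lower and 20.1% and 20.3% of all tested genes. Nothing particular to the motif is read from this count. TCATGTG, searched on both strands, was in 7 of the 41 (17.1%), against 4.31% of all genes and 3.77% of all promoters. A longer form, TCACGTGA with a G before it and a C after it, was searched as well. It was in 1 of the 41 (2.44%), against 0.37% of all genes and 0.326% of all promoters. That gene was Cln3, which was higher in each comparison, and the flanking letters are in lower case in its window below. A match describes the letters and not a bound site.

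The 60-base windows of the 6 genes with TCACGTGA, and that of Ctsl with CACGTG alone, are shown because they include genes that fell (Ctsd, Ctsa, Atp6v1a, Atp6v0d1, Ctsl), a gene that rose (Cln3) and a gene that was not called (Mcoln1). They read 5′ to 3′ on the strand of the gene. Capitals mark TCACGTGA, or CACGTG in the window of Ctsl; a further CACGTG near the 5′ end of the Mcoln1 window is left in lower case.
Ctsd: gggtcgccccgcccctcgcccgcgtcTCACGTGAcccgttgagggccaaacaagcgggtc
Ctsa: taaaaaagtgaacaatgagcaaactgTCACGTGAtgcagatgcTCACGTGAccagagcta
Atp6v1a: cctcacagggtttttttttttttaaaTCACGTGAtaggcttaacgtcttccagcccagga
Atp6v0d1: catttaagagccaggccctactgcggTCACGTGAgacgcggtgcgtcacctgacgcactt
Ctsl: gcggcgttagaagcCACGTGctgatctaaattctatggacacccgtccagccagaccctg
Cln3: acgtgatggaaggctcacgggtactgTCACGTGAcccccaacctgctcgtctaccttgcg
Mcoln1: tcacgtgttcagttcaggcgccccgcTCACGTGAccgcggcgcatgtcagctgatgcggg

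These windows lie at chr7:142387893-142387952 (Ctsd, minus strand), chr2:164833734-164833793 (Ctsa, plus), chr16:44139358-44139417 (Atp6v1a, minus), chr8:105566035-105566094 (Atp6v0d1, minus), chr13:64370711-64370770 (Ctsl, minus), chr7:126583325-126583384 (Cln3, minus) and chr8:3500447-3500506 (Mcoln1, plus). The first base of the motif stands 99, 13, 132, 4, 236, 122 and 46 bases before a RefSeq start of these genes, in that order. By GENCODE M21, whose gene starts differ, the windows of Ctsd, Ctsa, Atp6v1a, Ctsl and Cln3 lie inside the gene, from 86 bases (Ctsd) to 2433 bases (Cln3) past its start. Ctsa holds a second copy further 3′ in its window.

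Between the miRNA groups no lysosomal gene was called by limma, as no gene was among all 11419 tested (0%), while 6 of the 51 genes and 5.22% of all tested genes had an unadjusted p under 0.05. On rescaling to TPM that count of 6 became 3, with 574 of the 11419 tested genes. Without replicates 3 and 4 of both miRNA groups it was 2, with 730 of all tested genes. Leaving out single samples gave 5 to 8, with 487 to 734 of all tested genes. The differences of the 51 genes (miR-451a minus miR-144) ran from -0.27 (Atp6v0d2) to 0.21 (Ctsf) on the log2 scale, and 46 of them were within 0.1. Ctsf (SE 0.067, unadjusted p = 0.00665) and Arsb (0.12, SE 0.042, unadjusted p = 0.0129) were higher in value in miR-451a TAMs, and Atp6v0d2 (SE 0.088, unadjusted p = 0.00797), Atp6v1a, Atp6v1b2 and Atp6v1c1 lower, all from limma. The smallest adjusted p among the 51 genes was 0.827. The samples of Atp6v1b2 and Atp6v1c1 did not overlap between the miRNA groups, which held for 0.298% of all tested genes in that direction (lower in miR-451a), and none of the 51 lay apart in the other direction (0.552%).

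Other genes linked to the lysosome also had more falls than rises. Their 6 lists reach beyond the organelle itself, to enzyme sorting, cathepsin inhibitors and nutrient sensing. Of 95 genes in these lists, 80 passed the filter on low values, Cst7 among them only through the control group. Of the 80, 37 were lower and 18 higher in miR-144 TAMs, and 38 lower and 20 higher in miR-451a TAMs. Over all tested genes 20.1% were lower and 47.1% higher in miR-144 TAMs and 20.3% and 48.1% in miR-451a TAMs, which is the background for this count, for the 6 lists in it (other V-ATPase subunits, other hydrolases, transporters and channels, sorting, cathepsin inhibitors and nutrient sensing), and for the autophagy and osteoclast-type lists. Of the other V-ATPase subunits 5 of 12 were tested, and 3 were lower in both (none higher). Among them Atp6v0a1, the a1 isoform of V0, went from 80.1 ± 5.16 to 28.0 ± 3.36 and 28.4 ± 1.86 FPKM (log2 fold change -1.49 and -1.46).

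The other hydrolases had 13 lower and 8 higher of 28 tested in miR-144 TAMs, and 14 and 8 in miR-451a TAMs. Acp5, the tartrate-resistant acid phosphatase of osteoclasts and macrophages, went from 58.8 ± 6.93 to 5.39 ± 0.672 and 5.22 ± 0.638 FPKM, or 10.9-fold and 11.3-fold lower. Sgsh, a sulfamidase that degrades heparan sulfate, rose from 10.3 ± 0.579 to 30.7 ± 1.17 and 32.6 ± 1.40 FPKM, or 2.98-fold and 3.16-fold.

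Of 19 transporters and channels, 10 were lower in both groups and 4 (miR-144) or 5 (miR-451a) higher. The lysosomal calcium channels Tpcn2 and Tpcn1 moved in opposite directions. Tpcn2 went from 45.7 ± 4.31 to 13.9 ± 1.30 and 12.96 ± 1.13 FPKM, and Tpcn1 from 7.61 ± 0.293 to 22.6 ± 1.09 and 23.0 ± 0.493. The control and miRNA samples of either channel did not overlap.

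Of 10 genes of the maturation and sorting of lysosomal enzymes, by mannose 6-phosphate or otherwise, 5 were lower in each group and 1 (miR-144) or 2 (miR-451a) higher. The number lower ran from 3 on rescaling to TPM (miR-144) to 8 under median centring (miR-451a). In these settings 16.4% and 31.8% of all tested genes were lower. Igf2r, the large mannose 6-phosphate receptor, fell from 53.6 ± 1.41 to 33.8 ± 1.06 and 31.9 ± 1.501 FPKM, and the adaptor Gga3 rose from 8.99 ± 1.82 to 16.7 ± 3.44 and 14.3 ± 2.62. Of 5 cathepsin inhibitors tested, of 11, 3 were lower and none higher, and 1 was lower in each comparison at a minimum mean of 5 FPKM. At that minimum 1662 (miR-144) and 1660 (miR-451a) of the 6639 tested genes were lower. Cst7 (cystatin F) had 4.19 ± 0.622, 0.720 ± 0.0745 and 0.698 ± 0.159 FPKM, and passed the filter only through the control group.

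The Rag, Ragulator and folliculin genes, which tie nutrient sensing to the lysosome, had 5 higher and 3 lower of 13 tested in each group. Under median centring 3 were higher and 5 lower in miR-144 TAMs, and 3 higher and 6 lower in miR-451a TAMs. That setting had 30.8% of all tested genes higher and 30.7% lower in miR-144 TAMs, and 31.3% and 31.8% in miR-451a TAMs. Under quantile normalization 3 were higher and 3 lower in miR-144 and 3 higher and 5 lower in miR-451a TAMs. Of all tested genes 32% were then higher and 29.3% lower in miR-144 TAMs, and 32.9% and 30% in miR-451a TAMs. On rescaling to TPM 8 and 6 of the Rag, Ragulator and folliculin genes were higher, and 53.7% and 55.6% of all tested genes. Without replicates 3 and 4 of both miRNA groups 3 of them were higher in miR-144 TAMs, where 44.2% of all tested genes were. Lamtor4 rose from 21.1 ± 0.793 to 32.7 ± 1.68 and 31.6 ± 2.10 FPKM, and Lamtor3 fell from 17.98 ± 2.23 to 12.0 ± 1.23 and 10.3 ± 1.53. Of 16 autophagy genes, 6 were lower and 4 higher in miR-144 and 5 and 5 in miR-451a TAMs. Under median centring 8 were lower and 2 higher in miR-144 and 9 lower and 3 higher in miR-451a TAMs, and on rescaling to TPM 3 were lower and 7 higher in miR-451a TAMs. The shares of all tested genes under median centring are those given above. On rescaling to TPM 16.3% of all tested genes were lower and 55.6% higher in miR-451a TAMs. Ulk1, the kinase that starts autophagy, rose from 8.88 ± 0.275 to 14.0 ± 1.10 and 15.1 ± 0.703 FPKM, whereas Gabarapl1, of the LC3 family, fell from 104 ± 3.76 to 58.3 ± 7.04 and 56.6 ± 5.63.

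Of 9 genes known from osteoclasts, 5 were tested, 3 being lower (Acp5, Gpnmb and Ocstamp) and 2 higher in each group. The count is not independent of the falls given above, since Acp5 is in it and the list was chosen with them known. Gpnmb, a membrane glycoprotein of macrophages and osteoclasts, fell from 3218 ± 181 to 1314 ± 56.0 and 1266 ± 49.1 FPKM. Ocstamp, needed for osteoclast fusion, had 3.82 to 4.90 FPKM in control samples and 0 to 0.0682 in the miRNA groups, so it passed the filter only through the control group. Dcstamp, its relative, had 1.17 ± 0.212 FPKM in control and failed the filter. Nfatc1, the factor that drives osteoclast formation, rose from 6.69 ± 0.283 to 12.1 ± 0.977 and 12.9 ± 0.319 FPKM.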

How the data were processed

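TAMs of 15 samples were profiled by bulk RNA-seq. The authors deposited FPKM values for 55335 genes; the submitters' processing notes name FastQC (version 0.11.2), STAR and StringTie, and the genome build, annotation and strandedness are not given in the sources used here. Whole reads could not be recovered from the deposited FPKM values, so no count test was run.

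Genes with a mean under 1 FPKM were left out, 1 was added as pseudocount, and the 3 groups were fitted together on the log2 scale with limma (version 3.58.1, R 4.3.3, moderated with a trend on mean level), with Benjamini-Hochberg adjustment over 11419 genes and a threshold of 0.05. The script was tested on simulated data. Fold changes on this scale understate those of low genes, and folds of means are given beside those of the low genes Ctse, Ctsf and Arsb and of the largest falls.

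Values per sample are given for the 6 largest rises and falls, for genes that went against their class, for the MiT/TFE factors and for Atp6v0d1 and Atp6v0d2; of each other list, the largest rise and fall are named. Ctsd, Psap and genes given by mean or fold change complete the classes, and Gpnmb and Ocstamp were named after their values were seen. The 51 genes and all lists were chosen with earlier results of these data known. Alternatives were a pseudocount of 0.1, no filter, a minimum of 5 FPKM, rescaling to TPM, centring on sample medians, quantile normalization, a replicate block, no trend, 2 groups only and leaving out each sample; leaving out replicates 3 and 4 of both miRNA groups was added after seeing the data. Positions of genes and shared 50-mers are from GENCODE M21 (GRCm38), and sequences from RefSeq (GRCm38.p6), read with Python 3.11.15. Implied depths of 15.5 to 30.3 M fragments come from the steps between low values.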

Additional observations from a re-analysis of the deposited data

Results flagged for a closer look

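Within a group of 5, a sample stood far from the other 4 in 6 of 153 combinations of gene and group, where chance flags about 1 in 20 groups (7.65 here). The highest or lowest sample was set apart by a gap of over 0.71 of the range of its group. Atp6v0c gave 2 of the 6, with control replicate 4 lowest (169.9 FPKM) and miR-144 replicate 4 highest (154.2 FPKM). The others were control replicate 3 of Ctsk, the lowest at 53.39 FPKM, miR-144 replicate 1 of Atp6v0d1, the lowest at 81.38 FPKM, miR-144 replicate 5 of Atp6v1c1, the highest at 24.55 FPKM, and miR-451a replicate 5 of Cln3, the highest at 15.72 FPKM. All 5 genes were called in each comparison with control whichever sample was left out.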

How the results depend on the processing

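Of the 51 genes, 35 were lower in each comparison, and 31 to 37 under the alternatives. The number higher, 11 in miR-144 and 12 in miR-451a TAMs, was 6 and 7 under median centring, 14 and 14 after rescaling to TPM (where 53.7% and 55.6% of all tested genes were higher), and 9 to 12 and 10 to 12 with a sample left out. Without replicates 3 and 4 of both miRNA groups, the calls of Ctsh and Arsa (miR-451a) and of Lamp2, Manba and Tcirg1 (miR-144) were lost and Neu1 passed in miR-451a TAMs. Under median centring the log2 fold changes of Man2b1 (-0.029 in miR-144, -0.012 in miR-451a), Manba (-0.028 and -0.032), Neu1 (-0.027 in miR-144) and Hexa (-0.046 in miR-451a) turned negative. Under quantile normalization Manba (-0.015 and -0.022) and Hexa (-0.069 in miR-451a) turned negative and Tcirg1 (0.030 and 0.016) positive. The cause was not tested, apart from the shift of the median gene (0.13 and 0.14) that centring removes. Calls that ended or began without single samples were those of Ctsh, Lamp2, Manba, Neu1, Hexa and Mcoln1. Deviations of same-numbered samples from their group means correlated by -0.0122 on average for control and miR-144 (lowest -0.127), 0.14 for control and miR-451a (lowest 0.0658) and 0.101 for miR-144 and miR-451a (lowest -0.15), and 1, 6 and 5 of 10 samples correlated best with their own number. Samples of other numbers correlated by 0.00312, -0.0347 and -0.0251 on average, in the same order. Same-numbered samples were thus more alike on average where miR-451a was compared, and what the numbers stand for was not tested. Not every pair exceeded 0.1, so the numbers were not used as pairs in the main fit. With a replicate block 11 genes were higher and 35 lower in miR-144 TAMs, and 13 and 35 in miR-451a TAMs. Since counts were not recovered, the counting error of low genes such as Ctse (0.968 to 3.77 FPKM) is not known.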
